A study of Mus musculus with 24 samples.

Results

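The gene families described here hold enzymes that write and remove chemical marks on histones and on DNA. Taken were the genes of the deposited expression table whose symbol starts with Kdm, Hdac, Sirt, Kat, Setd, Dnmt or Tet followed by a digit, together with Ezh1 and Ezh2. They are called enzyme genes below. Not every member acts on histones or DNA: Dnmt3l has no catalytic activity, Sirt3 is mitochondrial and Hdac6 is a mostly cytoplasmic tubulin deacetylase. This name rule was met by 54 of the 23235 genes listed. It uses no measured value and takes in 16 Kdm, 11 Hdac, 8 Setd, 7 Sirt, 4 Dnmt, 3 Kat, 3 Tet and 2 Ezh genes. RNA-seq was run on T11, a claudin-low breast tumour line from mouse that carries a luciferase gene in all groups, per the labels. Cells grown in medium with 1% serum received PBS, the peptide FPP-1746, the Omomyc peptide or the joined FPP-1746-Omomyc, each peptide at 5 µM, and RNA was taken after 3 h or 6 h. Each of the 8 groups had 3 biological replicates, 24 samples in all, and every sample comes from the same cell line. Omomyc is a mutated dimerisation domain of MYC that binds MAX and DNA in its place, and FPP-1746 is a cell-penetrating peptide. The joined molecule is called the fusion below. Its 6 h samples carry a treatment tag that reads 3 h, and their titles and the table's column, which read 6 h, were followed.

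Histone lysines are acetylated by acetyltransferases (Kat) and deacetylated by zinc-dependent deacetylases (Hdac) or by NAD-dependent sirtuins (Sirt). Methyl groups are placed on histone lysines by SET domain enzymes, among them Ezh1 and Ezh2, the catalytic subunits of Polycomb repressive complex 2, and taken off by lysine demethylases (Kdm). On DNA, Dnmt1 copies methylation after replication, Dnmt3a and Dnmt3b place it anew, and Tet enzymes oxidise it. Histone acetylation, and methylation of histone H3 lysine 4, mark active promoters, while methylation of H3 lysine 27 or lysine 9 marks silenced chromatin. MYC with MAX binds the E-box CACGTG and recruits acetyltransferase complexes that hold Kat2a or Kat5. The claudin-low type of breast tumour is known for mesenchymal genes and low epithelial junction genes.

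The authors deposited 1 averaged column per group, in FPKM (fragment numbers divided by transcript length and library size). The spread between replicates is thus not seen, nothing was tested for significance, and no difference below has a replicate check. A column summed to 445657 FPKM at the least (fusion, 6 h) and 594951 FPKM at the most (fusion, 3 h). A rough reading of the steps between low values put 32000000 to 53200000 fragments behind a column, the fewest behind the fusion at 3 h. The 7 claudin-low markers all reached 1 FPKM, and 0 of 13 epithelial and claudin genes did, with Epcam and Cldn3 at 0 in every column. Of 6 macrophage markers Emr1 was at 0 and Csf1r, Ptprc and Itgam stayed at or below 0.0523 FPKM in every column. Cd14 and Cd68 were higher with the fusion. Cd14 stood at 77.4 against 10.1 FPKM in PBS at 3 h and 118 against 12.9 at 6 h. Cd68, above 1 FPKM in every column, stood at 3.486 against 1.045 FPKM in PBS at 3 h and 2.752 against 1.382 at 6 h. The summed macrophage list was 11.2 to 25.8 FPKM in the other columns and 80.9 and 121 FPKM in the fusion, nearly all of it Cd14. Its part in the results below was not tested. In bulk RNA, fewer cells of a type and less RNA per cell cannot be told apart.

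Because Omomyc competes for E-boxes, the promoter windows of the enzyme genes were read for CACGTG, and for the AP-1 site TGACTCA and the cyclic AMP response element TGACGTCA, on both strands. RefSeq windows (assembly GRCm38.p6, 250 bases before to 50 after a transcript start) matched 46 of the 54 genes with 69 windows. CACGTG lay in at least 1 window of 7 of these 46 genes (Dnmt3a, Dnmt3l, Hdac5, Kat5, Kdm4c, Kdm6a and Sirt1). Per single window it was in 7 of the 69, and in 7.15% of all 32851 windows. Per gene compared, it was in 6 of 40 enzyme genes and in 12.6% of all 7334 genes with a window. Sirt1 is shown since its value differed most and 2 E-boxes lie in its window. Kdm6a, Dnmt3a and Kat5 are shown as the other genes that were higher with the fusion and hold an E-box before the start. Kdm4c also holds 2 E-boxes before its start, at -85 and -53, and is not printed. Each stretch reads 5′ to 3′ on the gene's strand, with the E-box in capitals. The Sirt1 stretches lie at chr10:63339043-63339108 and chr10:63339115-63339180 on the minus strand, with the E-box at position -43 and -115 from the start. The others lie at chrX:18162518-18162574 (plus strand), chr12:3891634-3891699 (plus strand) and chr19:5610245-5610310 (minus strand).
Sirt1, near E-box: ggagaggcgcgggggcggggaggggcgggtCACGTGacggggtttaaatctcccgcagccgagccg
Sirt1, far E-box: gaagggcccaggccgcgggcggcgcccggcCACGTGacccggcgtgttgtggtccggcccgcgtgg
Kdm6a: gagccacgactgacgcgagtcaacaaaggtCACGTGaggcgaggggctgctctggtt
Dnmt3a: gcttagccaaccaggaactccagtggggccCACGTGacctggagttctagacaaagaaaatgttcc
Kat5: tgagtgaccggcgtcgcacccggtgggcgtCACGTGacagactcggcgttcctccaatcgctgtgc

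The AP-1 site, bound by FOS and JUN proteins, lay in windows of 5 of the 46 genes (Hdac7, Kat2b, Kdm3a, Kdm4a and Kdm5c). Per single window it was in 6 of the 69 and in 5.20% of all, and per gene compared in 5 of 40 enzyme genes and 4.20% of all 7334. The 3 demethylase genes are shown because all 3 stood higher with the fusion at 6 h. The site is in capitals, as TGACTCA or its reverse complement TGAGTCA. They lie at chr6:71632825-71632891 (minus strand), chr4:118180197-118180263 (minus strand) and chrX:152233126-152233192 (plus strand). TGACGTCA was in none of the windows of the 46 genes and in 1.79% of all windows. A match describes letters in a window and is no measure of binding.
Kdm3a: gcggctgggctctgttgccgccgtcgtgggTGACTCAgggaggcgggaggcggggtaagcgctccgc
Kdm4a: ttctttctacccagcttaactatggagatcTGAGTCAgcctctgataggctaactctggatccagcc
Kdm5c: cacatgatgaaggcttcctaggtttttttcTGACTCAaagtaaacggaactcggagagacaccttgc

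With the fusion, several demethylases, the nuclear sirtuin Sirt1, the oxidase Tet2 and the de novo methyltransferase Dnmt3a stood higher than in PBS, while Setd7, Kat2a, Hdac7 and the maintenance methyltransferase Dnmt1 stood lower. Differences are log2 ratios of FPKM + 1, a scale that understates the difference of genes with low values. A gene was counted as higher or lower at a size of 2-fold, or at the lesser size of 1.5-fold (0.58 on the log2 scale), and only genes whose mean over all columns reached 1 FPKM were compared. That left 48 of the 54 enzyme genes and 10262 genes in all. Tet2 was the 1 enzyme gene that reached this mean only through the fusion columns.

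At 3 h, 5 of the 48 enzyme genes were at least 2-fold higher in the fusion than in PBS (Sirt1, Kdm6b, Kdm5b, Kdm3a and Tet2), against 6.13% of all genes compared, and 0 were 2-fold lower, against 4.42%. At 1.5-fold, 11 were higher and 3 lower, against 15.7% and 14.5% of all genes. At 6 h, 4 were at least 2-fold higher (Sirt1, Sirt7, Kdm6b and Kdm4a), against 7.13% of all genes, and Setd7 was lower, against 3.34%. At 1.5-fold, 15 were higher and 6 lower at 6 h, against 17.4% and 15.2%. The share of enzyme genes that were higher was 22.9% at 3 h and 31.2% at 6 h, and the share that were lower was 6.25% and 12.5%. The median ratio of the enzyme genes was 0.21 at 3 h and 0.22 at 6 h, and that of all genes compared was 0.0034 and -0.026. The 3 h split depends on the scaling. Scaling every column to the same sum, an alternative chosen after seeing the data, left 7 higher and 9 lower enzyme genes at 1.5-fold, with a median of -0.04, and moved the median of all genes to -0.25. Under it, 407 genes of all were 2-fold higher and 907 lower, against 629 and 454 as deposited.

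**Figure D1:**
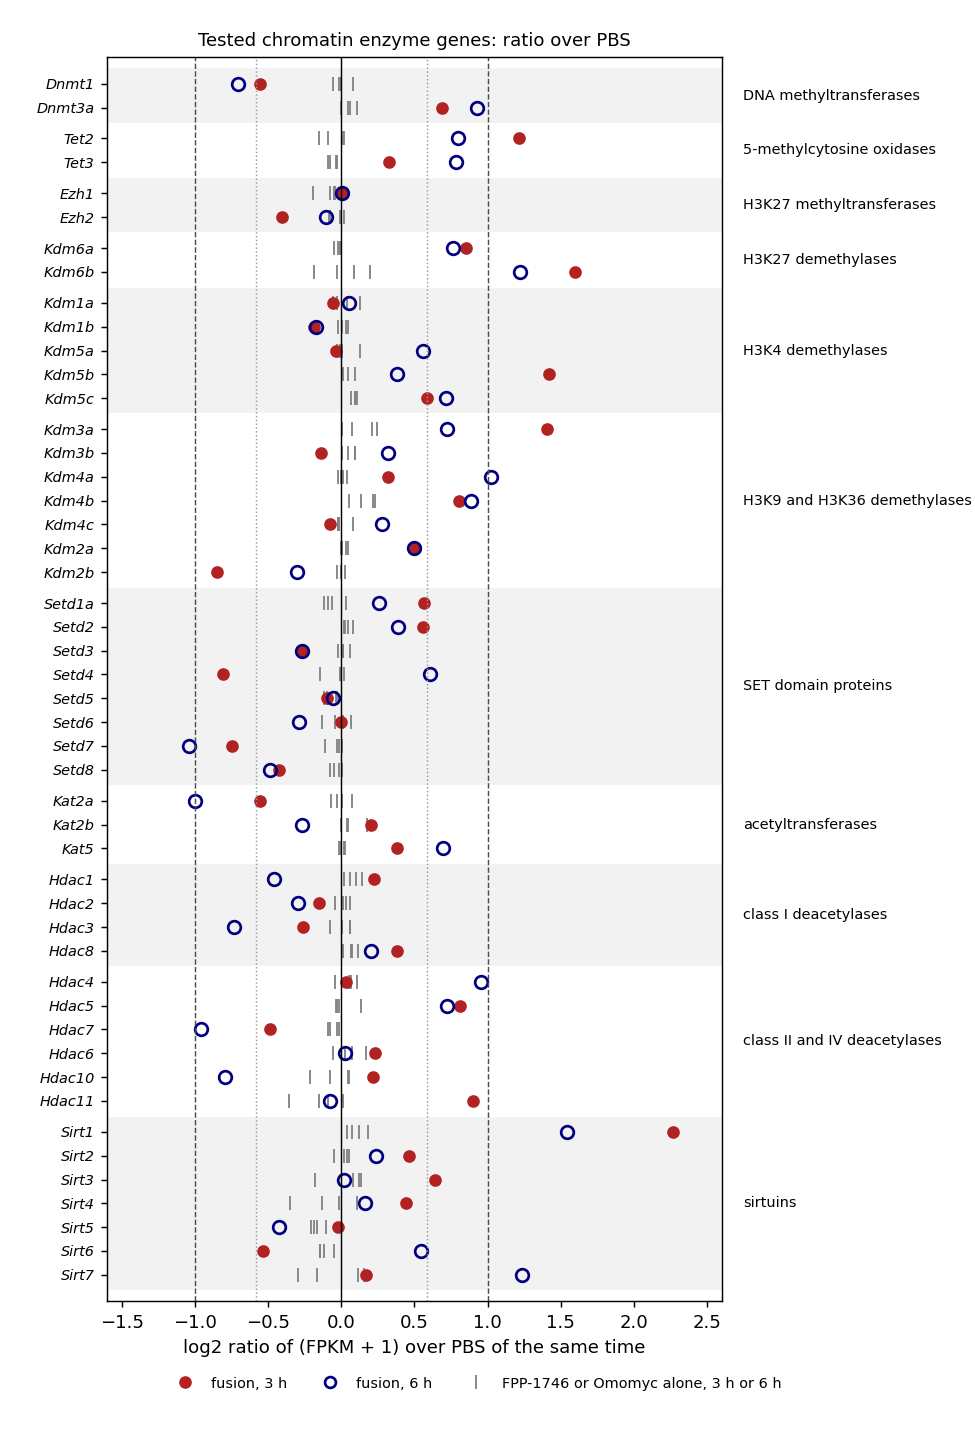
Log2 ratio of FPKM + 1 over PBS of the same time (x axis) for the 48 enzyme genes compared, in 11 groups by role (y axis). Filled red circles are the fusion at 3 h, open blue circles the fusion at 6 h, grey ticks either part alone at 3 h or 6 h, dashed lines 2-fold and dotted lines 1.5-fold. Sirt1 lies farthest right, at 2.27 and 1.54, and every grey tick lies between -0.35 and 0.24.

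Values of a gene are given below in FPKM in the order PBS, Omomyc, FPP-1746 and fusion, first at 3 h and then at 6 h, and positions are those of the deposited table, in mm9.

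Among the DNA methyltransferases, the maintenance enzyme was lower with the fusion and the de novo enzyme higher. Dnmt1 (chr9:20711650-20764332) stood at 59.7, 59.7, 63.1 and 40.3 FPKM at 3 h and at 66.6, 65.9, 64.1 and 40.4 FPKM at 6 h. The fusion column was the lowest at both times, with a ratio to PBS of -0.56 at 3 h, short of 1.5-fold, and -0.71 at 6 h. Dnmt3a (chr12:3806980-3914443) stood at 3.32, 3.31, 3.66 and 5.97 FPKM, then at 2.80, 2.96, 2.93 and 6.23 FPKM. Its ratios were 0.69 and 0.93, and the fusion column was the highest at both times. The locus given for Dnmt3a also covers Gm10485, which was at or near 0 in all columns. The FPKM of Dnmt3a was 0.0555 times that of Dnmt1 in PBS at 3 h and 0.148 times in the fusion, and 0.0421 against 0.154 times at 6 h. Dnmt3b ranged from 0.371 to 0.653 FPKM, and Dnmt3l, a partner with no catalytic activity, from 0.0147 to 0.0874 FPKM, so neither was compared.

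Of the 5-methylcytosine oxidases, Tet2 and Tet3 were higher with the fusion and Tet1 was close to 0, between 0 and 0.0113 FPKM. Tet2 (chr3:133126641-133207354) stood at 0.792, 0.610, 0.686 and 3.15 FPKM, then at 1.01, 1.04, 1.02 and 2.50 FPKM. The 6 other columns stayed within 0.61 to 1.04 FPKM, and the ratios of the fusion to PBS were 1.21 and 0.80. By the rough depth reading, these levels came from about 339 fragments in PBS and 925 in the fusion at 3 h. Tet3 (chr6:83312368-83391672) stood at 2.14, 2.07, 2.08 and 2.95 FPKM, then at 1.53, 1.39, 1.37 and 3.36 FPKM, with ratios of 0.33 and 0.79. Only the 6 h ratio of Tet3 reached 1.5-fold. The 2 oxidases together had 0.0491 times the FPKM of Dnmt1 in PBS at 3 h and 0.152 times in the fusion, and 0.0381 against 0.145 times at 6 h.

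For H3 lysine 27, both demethylases were higher with the fusion and neither methyltransferase reached 1.5-fold. Kdm6b (JMJD3, chr11:69212020-69227177) stood at 4.57, 4.45, 3.89 and 15.8 FPKM, then at 4.93, 5.81, 5.29 and 12.9 FPKM. Its ratios to PBS were 1.59 and 1.22, next to Sirt1 the largest of the 48 at 3 h. Kdm6a (UTX, chrX:17739793-17856484) stood at 5.56, 5.46, 5.51 and 10.8 FPKM, then at 6.13, 6.11, 5.87 and 11.1 FPKM. Its ratios were 0.85 and 0.76, and the 6 columns without the fusion lay between 5.46 and 6.13 FPKM. Ezh2 (chr6:47480273-47545029) stood at 13.8, 13.7, 12.9 and 10.2 FPKM, then at 15.2, 15.4, 14.3 and 14.0 FPKM, with ratios of -0.40 and -0.11. Ezh1 had ratios of 0.01 and 0.00. Kdm6b had 0.332 times the FPKM of Ezh2 in PBS at 3 h and 1.56 times in the fusion, so their order was turned round. At 6 h the value was 0.325 in PBS and 0.916 in the fusion. Kdm6a to Ezh2 was 0.404 in PBS and 1.06 in the fusion at 3 h, and 0.403 and 0.791 at 6 h.

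**Figure D2:**
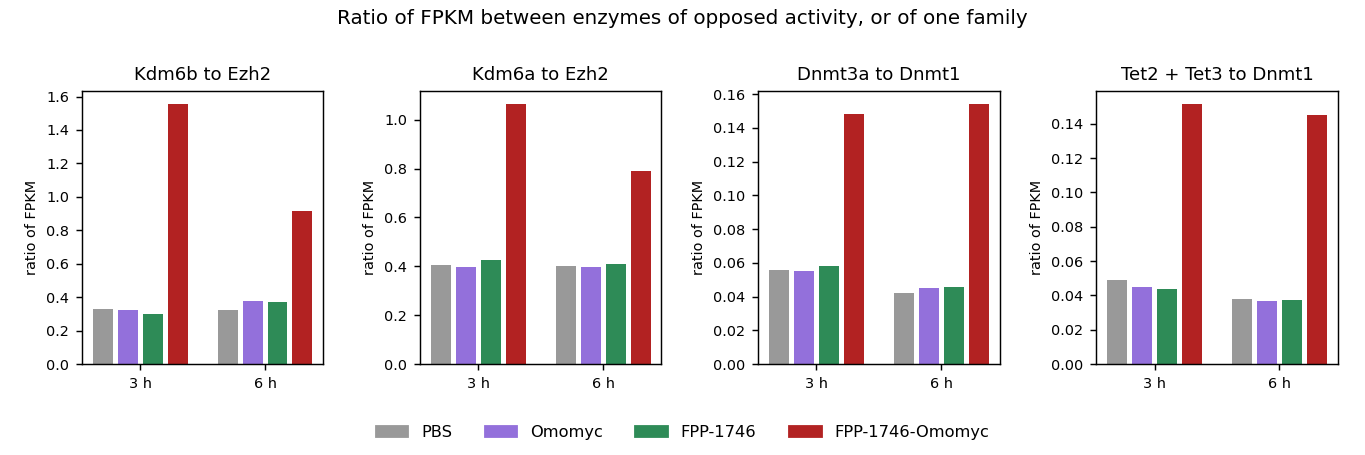
Ratio of FPKM between 2 enzymes of opposed or related activity (y axis, linear from 0) in the 8 averaged columns at 3 h and 6 h (x axis); each bar is 1 column and has no error. In all 4 panels the fusion bar is the tallest at both times, for example 1.56 against 0.301 to 0.332 for Kdm6b to Ezh2 at 3 h.

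The H3 lysine 4 demethylases differed among themselves. Kdm5b (JARID1B, chr1:136456755-136529455) stood at 1.72, 1.74, 1.81 and 6.28 FPKM, then at 2.33, 2.35, 2.55 and 3.33 FPKM. The 3 h ratio was 1.42 and the 6 h ratio 0.38, so it was 2-fold higher at 3 h and short of 1.5-fold at 6 h. Kdm5c (JARID1C, chrX:148667773-148708897) stood at 38.9, 41.5, 41.9 and 58.7 FPKM, then at 38.5, 40.4, 41.3 and 64.0 FPKM, with ratios of 0.58, just short of 1.5-fold, and 0.72. Kdm1a (LSD1, chr4:136106448-136158638) uses a flavin cofactor and had the highest mean of the Kdm genes. It stood at 44.4, 48.7, 45.7 and 42.6 FPKM, then at 46.6, 44.7, 45.7 and 48.5 FPKM. Its ratios to PBS were -0.06 and 0.06. Kdm5a and Kdm1b had ratios of -0.03 and -0.19 at 3 h and 0.56 and -0.17 at 6 h. Kdm5d was listed at 0 in all columns.

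Among the H3 lysine 9 and lysine 36 demethylases, Kdm3a, Kdm4a and Kdm4b were higher with the fusion and Kdm2b was lower. Kdm3a (chr6:71538966-71582899), which acts on H3 lysine 9, stood at 12.2, 14.6, 14.2 and 33.8 FPKM, then at 13.6, 14.4, 13.6 and 23.0 FPKM, with ratios of 1.40 and 0.72. Kdm4a (chr4:117809609-117852648), which acts on both lysines, stood at 18.5, 18.5, 18.2 and 23.3 FPKM, then at 20.2, 20.8, 20.4 and 42.2 FPKM. Its ratios were 0.32 and 1.02, the reverse of the order in Kdm3a, where the 3 h ratio was the larger. Kdm4b (chr17:56465473-56542296) stood at 7.01, 8.42, 7.79 and 13.0 FPKM, then at 6.90, 7.19, 8.19 and 13.6 FPKM, with ratios of 0.80 and 0.89. Kdm2b (chr5:123320685-123439101), a subunit of a variant Polycomb repressive complex 1 that binds CpG islands, stood at 13.4, 13.6, 13.0 and 6.96 FPKM, then at 10.3, 10.3, 10.3 and 8.18 FPKM. It had the lowest 3 h ratio of the 48, -0.85, and -0.30 at 6 h. Its paralog Kdm2a had ratios of 0.51 and 0.49, both short of 1.5-fold. Kdm3b and Kdm4c had ratios of -0.14 and -0.08 at 3 h and 0.32 and 0.28 at 6 h. Kdm4d ranged from 0 to 0.0319 FPKM and was not compared. Over all Kdm genes compared, 5 of 14 were 1.5-fold higher and 1 lower at 3 h, and 6 and 0 at 6 h. All genes compared gave 15.7% higher and 14.5% lower at 3 h and 17.4% and 15.2% at 6 h. The medians of the Kdm genes were 0.41 and 0.53. These medians stayed above 0 under each scaling tried. Demethylases and JmjC proteins with other names did not share this split. Of 11 compared, 1 was 1.5-fold higher and 4 lower at 3 h, and 1 and 0 at 6 h. Their medians were 0.13 and 0.08.

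The Setd genes, which encode SET domain proteins, had a median ratio below 0 at both times, -0.19 at 3 h and -0.16 at 6 h. It was below 0 under each scaling tried. The 18 other lysine methyltransferases compared, with other names, had medians of -0.0003 at 3 h and 0.20 at 6 h. Of the 8 Setd genes, 0 were 1.5-fold higher and 2 lower at 3 h, and 1 was higher and 1 lower at 6 h. These counts are to be read against the same shares of all genes. Setd7 (chr3:51319240-51371038), a lysine monomethyltransferase, stood at 30.4, 30.5, 29.9 and 17.7 FPKM, then at 34.8, 34.4, 32.2 and 16.4 FPKM. The fusion column was the lowest at both times, with ratios of -0.75 and -1.04. The locus given for it also covers 5031434O11Rik, at or near 0 in all columns. Setd8 (now named Kmt5a, chr5:124889939-124912316), which monomethylates histone H4 and is the highest of the family, stood at 114, 112, 108 and 84.4 FPKM, then at 115, 111, 115 and 81.7 FPKM. Its ratios of -0.43 and -0.49 did not reach 1.5-fold. Setd4 (chr16:93583706-93604060) stood at 1.99, 1.70, 1.98 and 0.710 FPKM, then at 1.44, 1.42, 1.47 and 2.72 FPKM. It was the lowest column at 3 h and the highest at 6 h, with ratios of -0.81 and 0.61. These low levels came from about 243 and 59.4 fragments in PBS and the fusion at 3 h, and 200 and 373 at 6 h. The H3 lysine 4 enzyme Setd1a and the H3 lysine 36 enzyme Setd2 had ratios of 0.57 and 0.56 at 3 h and 0.26 and 0.39 at 6 h. Setd3, Setd5 and Setd6 lay between -0.27 and 0.00 at 3 h and between -0.29 and -0.06 at 6 h.

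Of the 3 acetyltransferases, Kat2a was lower and Kat5 higher with the fusion at 6 h, and 0 reached 1.5-fold at 3 h. Kat2a (GCN5, chr11:100566060-100573781) stood at 71.3, 71.7, 69.7 and 48.3 FPKM, then at 79.9, 76.2, 84.2 and 39.5 FPKM. Its ratios were -0.55 and -0.997, the latter just short of 2-fold, and the fusion column was the lowest at both times. Kat5 (TIP60, chr19:5603014-5610094) stood at 25.0, 25.4, 25.3 and 32.8 FPKM, then at 26.2, 25.9, 26.2 and 43.1 FPKM. Its ratios were 0.38 and 0.70, and the 6 columns without the fusion lay between 25.0 and 26.2 FPKM. Kat2b (PCAF) had ratios of 0.20 and -0.27.

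The class I deacetylases, most of them catalytic subunits of nuclear corepressor complexes, were near PBS at 3 h. At 6 h 3 of the 4 were below it, against 5307 of all 10262 genes compared. Hdac2 (chr10:36694350-36721694), the highest of all 54 genes, stood at 122, 127, 125 and 109 FPKM, then at 122, 118, 123 and 99.2 FPKM, with ratios of -0.15 and -0.30. Hdac3 (chr18:38096625-38114642) stood at 77.2, 80.3, 80.4 and 64.1 FPKM, then at 73.9, 70.0, 74.2 and 44.1 FPKM, with ratios of -0.26 and -0.73. It was the 1 class I gene past 1.5-fold. Hdac1 had ratios of 0.22 and -0.46, and Hdac8 of 0.38 and 0.21.

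The class II deacetylases, several of which shuttle between nucleus and cytoplasm, and the class IV enzyme went in different directions. Hdac5 (chr11:102057061-102091486) stood at 15.1, 14.8, 14.9 and 27.2 FPKM, then at 14.4, 14.1, 16.0 and 24.5 FPKM, with ratios of 0.81 and 0.72. Hdac7 (chr15:97614796-97674933), of the same class IIa, stood at 20.1, 19.7, 18.8 and 14.0 FPKM, then at 24.7, 23.4, 24.4 and 12.2 FPKM, with ratios of -0.49 and -0.96. Hdac7 was above Hdac5 in each column without the fusion and below it in both fusion columns: Hdac5 had 0.753 times its FPKM in PBS at 3 h and 1.94 times in the fusion, and 0.584 against 2.00 times at 6 h. The locus given for Hdac7 also covers Slc48a1, which was itself at 79.7 FPKM in PBS and 58.2 in the fusion at 3 h, and at 82.4 and 34.0 FPKM at 6 h, so reads of both may be mixed.

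Hdac4 (chr1:93829332-94044970), also of class IIa, stood at 4.91, 4.72, 5.36 and 5.04 FPKM, then at 4.62, 4.90, 4.83 and 9.90 FPKM. The 3 h fusion value lay inside the range of the other columns and the 6 h value far above it, with ratios of 0.03 and 0.95. Hdac10 (class IIb, chr15:88953733-88959130) stood at 3.90, 4.07, 4.05 and 4.69 FPKM, then at 4.74, 4.45, 3.94 and 2.31 FPKM, with ratios of 0.22 and -0.79. Hdac11, the class IV deacetylase (chr6:91106809-91124677), stood at 0.897, 0.914, 0.779 and 2.53 FPKM, then at 1.57, 1.32, 1.01 and 1.44 FPKM. It was 1.5-fold higher at 3 h, with a ratio of 0.90 from about 111 and 215 fragments, and inside the range of the other columns at 6 h, at -0.075. Hdac6, a mostly cytoplasmic tubulin deacetylase, had ratios of 0.23 and 0.02. Hdac9 ranged from 0.425 to 1.16 FPKM, with both values above 1 in the fusion columns, and its mean was too low to be compared.

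Sirtuins held the largest ratio of all 54 genes. Sirt1 (chr10:62781753-62801783), a nuclear deacetylase of histones and transcription factors, stood at 6.96, 7.16, 8.05 and 37.4 FPKM, then at 5.42, 5.76, 5.97 and 17.7 FPKM. The fusion column was far above the other 3 at both times, with ratios to PBS of 2.27 and 1.54. Sirt7 (chr11:120479686-120486316), which is nucleolar, stood at 8.26, 6.55, 7.26 and 9.40 FPKM, then at 7.91, 8.92, 8.64 and 20.01 FPKM, with ratios of 0.17 and 1.24. Its difference lay at 6 h, where that of Sirt1 was the larger at 3 h. Sirt3 (chr7:148043296-148068208), which is mitochondrial, stood at 4.91, 5.26, 5.48 and 8.21 FPKM, then at 4.55, 5.02, 3.90 and 4.61 FPKM, with ratios of 0.64 and 0.02. Sirt2 (chr7:29551771-29573684), mostly cytoplasmic and the highest of the family, stood at 35.2, 36.1, 35.6 and 48.9 FPKM, then at 30.9, 29.7, 32.0 and 36.5 FPKM. Its ratios of 0.47 and 0.24 did not reach 1.5-fold. The loci given for Sirt3 and Sirt2 also cover Ric8 (11.2 to 18.7 FPKM) and Gm19897 (at or near 0). Sirt1 had 0.198 times the FPKM of Sirt2 in PBS at 3 h and 0.765 times in the fusion, and 0.176 against 0.486 times at 6 h. Sirt6, a nuclear enzyme, had ratios of -0.53 and 0.54, and Sirt4 and Sirt5 of 0.45 and -0.02 at 3 h and 0.16 and -0.42 at 6 h. The family's medians of 0.45 and 0.24 stayed above 0 under each scaling tried.

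**Figure D3:**
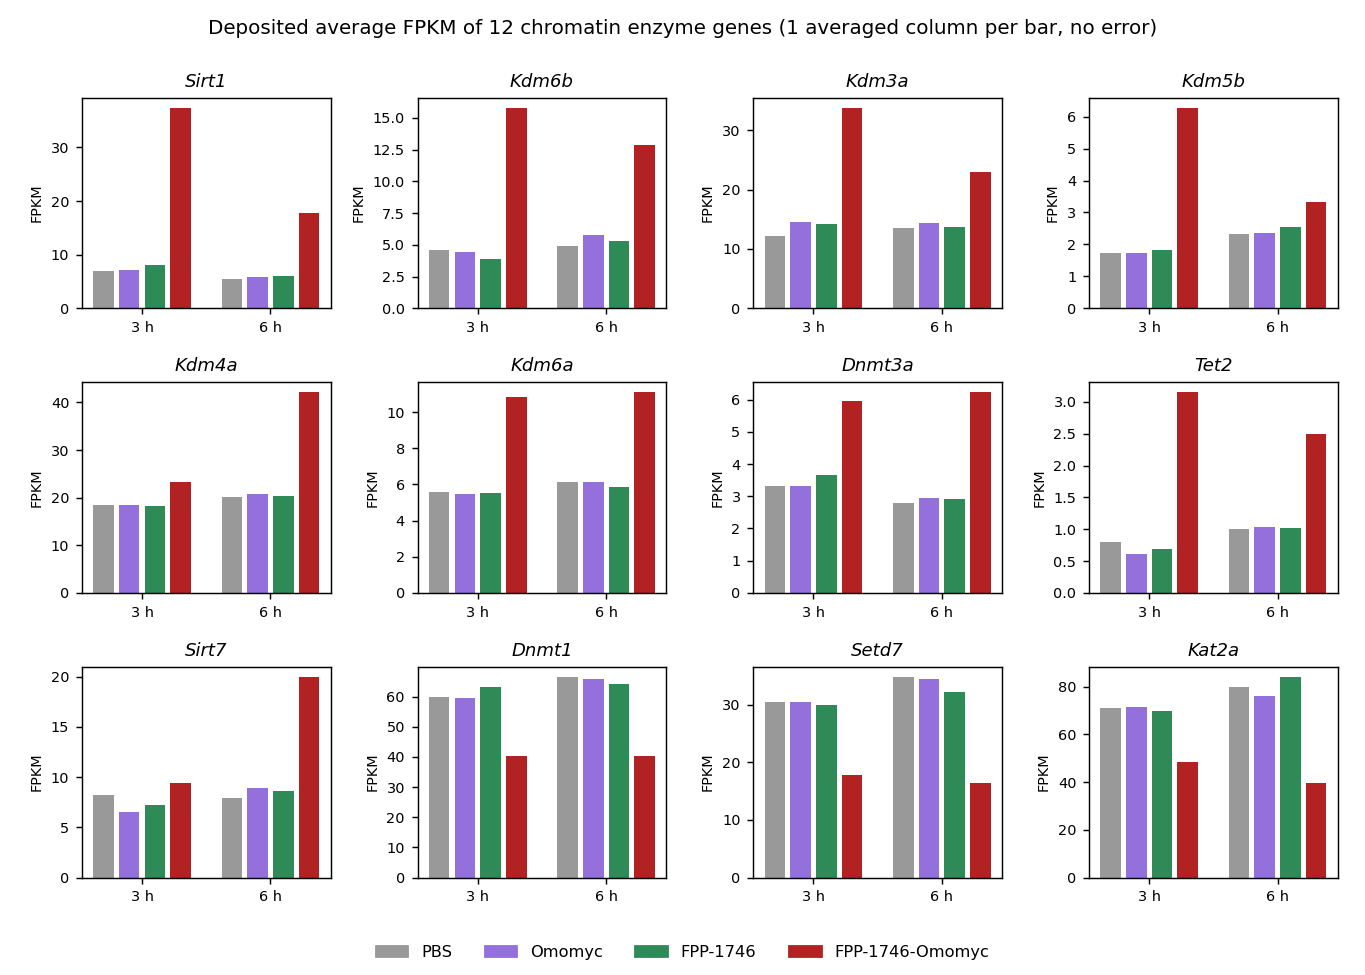
Deposited average FPKM (y axis, linear from 0, own scale per panel) of 12 enzyme genes in the 8 groups (x axis, 3 h and 6 h); each bar is 1 averaged column of 3 replicates and has no error. The fusion bar is the tallest for Sirt1 (37.4 and 17.7 FPKM) and the shortest for Dnmt1, Setd7 and Kat2a at both times, and the other 3 bars lie close together.

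Summed over a family, FPKM was higher in the fusion than in PBS for the Kdm genes (258 against 187 at 3 h, 287 against 195 at 6 h). The sums were also higher for the sirtuins (114 against 67.6, then 99.9 against 65.0) and the Tet genes (6.10 against 2.93, then 5.87 against 2.54). FPKM was lower for the Setd genes, at 178 against 215 FPKM at 3 h and 166 against 218 at 6 h. The Dnmt genes (46.6 against 63.7, then 47.1 against 70.0) and Kat genes (86.3 against 101, then 86.3 against 111) were lower too. So were the Ezh genes (12.7 against 16.2, then 17.4 against 18.5). The deacetylases summed to 273 in the fusion against 281 in PBS at 3 h and to 224 against 277 at 6 h. In these sums the most abundant genes weigh most. Whole columns differed as well: the fusion summed to 594951 FPKM and PBS to 486989 at 3 h, and to 445657 and 468758 at 6 h. The family sums were not scaled for this.

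The times shared 8 genes that were 1.5-fold higher at both (Dnmt3a, Hdac5, Kdm3a, Kdm4b, Kdm6a, Kdm6b, Sirt1 and Tet2), 16.7% of the 48, against 8.39% of all genes compared. Tet2 is among them although it reached the mean of 1 FPKM only through the fusion columns, so the filter favoured a higher value for it. Setd7 alone was lower at both, against 3.47% of all genes. Higher at 3 h only were Hdac11, Kdm5b and Sirt3, and higher at 6 h only Hdac4, Kat5, Kdm4a, Kdm5c, Sirt7 and Tet3. Lower at 3 h only was Kdm2b, and lower at 6 h only Dnmt1, Hdac10, Hdac3, Hdac7 and Kat2a. Setd4 was lower at 3 h and higher at 6 h. In all, 25 of 48 passed 1.5-fold at some time, 52.1%, against 49.7% of all genes, and 38 had the same sign at both, 79.2% against 60.7%. The 2 ratios use different PBS columns.

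Set directly against the fusion at 3 h, the fusion at 6 h was 2-fold higher for 3 genes, Sirt6 (1.43), Setd4 (1.12) and Sirt7 (1.02), against 7.27% of all genes. It was 2-fold lower for Sirt1 (-1.04), against 4.92%. At 1.5-fold 6 were higher and 6 lower, against 17.8% and 20.2%, which added Hdac4 (0.85), Kdm4a (0.83) and Kdm4c (0.65) above and Hdac8 (-0.84), Hdac10 (-0.78), Kdm5b (-0.75), Hdac1 (-0.73) and Sirt3 (-0.71) below. This split depends on the scaling too: with equal column sums 13 were higher and 1 lower at 1.5-fold, and of all genes 1609 were 2-fold higher and 117 lower, against 746 and 505 as deposited. Without peptide, PBS at 6 h against PBS at 3 h passed 1.5-fold for Hdac8 alone (-0.67), against 3.98% of all genes in either direction. Hdac8 was thus lower at 6 h both with the fusion and in PBS.

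**Figure D4:**
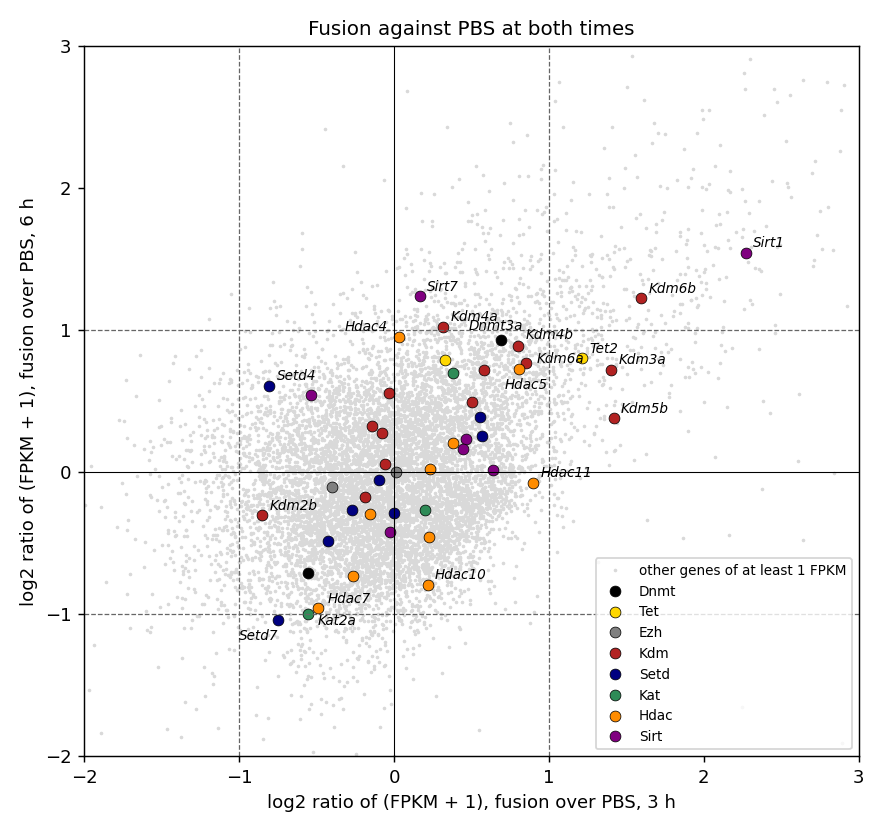
Log2 ratio of FPKM + 1 of the fusion over PBS at 3 h (x axis) and 6 h (y axis), coloured by family for the 48 enzyme genes, with other genes compared as grey points (those beyond the axes are not drawn) and dashed lines at 2-fold. Sirt1 (2.27, 1.54) and Kdm6b (1.59, 1.22) lie past 2-fold at both times, and Setd4 (-0.81, 0.61) lies in the upper left.

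The parts alone gave little difference in these genes, and few of all genes compared differed either. In each of the 4 comparisons of FPP-1746 or Omomyc with PBS, 0 of the 48 passed 1.5-fold. Of all genes, 0.935% did with FPP-1746 at 3 h and 0.906% at 6 h, and 0.974% with Omomyc at 3 h and 0.935% at 6 h. The largest sizes were 0.21 for Kdm3a and 0.35 for Hdac11 with FPP-1746 at 3 h and 6 h, and 0.29 for Sirt7 and 0.21 for Sirt5 with Omomyc. The fusion column lay outside the range of the other 3 columns for 45 of the 48 genes at either time, 27 above and 18 below at 3 h and 29 above and 16 below at 6 h. Of all genes, 46.0% lay above and 45.9% below at 3 h, and 44.0% and 47.3% at 6 h.

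The fusion was also set against each part of the same time. These comparisons share the fusion column with those against PBS, so they are no separate evidence. Against FPP-1746 at 3 h, 5 genes were 2-fold higher and 0 lower (5.86% and 4.01% of all genes), and 10 and 4 passed 1.5-fold (14.7% and 13.9%). At 6 h the numbers were 4 and 1 (6.94% and 3.21%) and 17 and 5 (17.0% and 14.8%). Against Omomyc at 3 h, 5 were 2-fold higher and 0 lower (5.56% and 3.76%), and 9 and 3 passed 1.5-fold (14.6% and 13.4%). At 6 h the numbers were 3 and 1 (6.59% and 3.07%) and 16 and 6 (17.3% and 14.7%). Genes that passed 1.5-fold in these comparisons and not against PBS at any time were Setd1a (0.63 against FPP-1746 at 3 h), Kdm5a (0.59 against FPP-1746 at 6 h) and Sirt6 (0.69 against FPP-1746 and 0.66 against Omomyc at 6 h). With equal column sums the 3 h splits at 1.5-fold turned round here as well, to 7 higher and 8 lower against FPP-1746 and 7 and 10 against Omomyc. Of all genes, 408 were then 2-fold higher and 776 lower against FPP-1746 (601 and 412 as deposited), and 399 and 790 against Omomyc (571 and 386). For Sirt1 the ratios were 2.09 and 2.24 at 3 h and 1.42 and 1.47 at 6 h, against FPP-1746 and Omomyc.

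The genes that work with these enzymes were read in 9 lists of 172 genes, of which 156 are in the table, some under older symbols. Their counts at 2-fold are to be read against all genes compared, of which 6.13% were higher and 4.42% lower at 3 h and 7.13% and 3.34% at 6 h. Of the Polycomb repressive complex 2 partners, 2 of 9 were 2-fold higher at 3 h, Phf1 (1.07) and Jarid2 (1.07), which help recruit the complex. At 6 h Phf1 was higher (1.31) and Phf19 lower (-1.34). Of 18 complex 1 genes, 2 were 2-fold higher and 3 lower at 3 h, and 0 were higher and 1 lower at 6 h. The CBX subunits, which read methylated H3 lysine 27, stood on both sides at 3 h, with Cbx8 at 1.54 and Cbx6 at -1.37, and Pcgf3, a subunit of variant forms, was at -1.09. In the MLL and COMPASS list, the H3 lysine 4 methyltransferase complexes, 0 of 14 passed 2-fold at 3 h and Dpy30 alone at 6 h (-1.32). The arginine methyltransferases, 8 of them compared, had none past 2-fold at 3 h and 2 lower at 6 h, Carm1 (-1.05) and Prmt7 (-1.05). Below 0 lay 7 of 8 at 3 h and 6 of 8 at 6 h, against 5075 and 5307 of all 10262 genes.

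Of 18 other lysine methyltransferases compared, 1 was higher (Whsc1l1, 1.03) and 1 lower (Smyd5, -1.17) at 3 h, and Smyd2 was lower at 6 h (-1.01). Among 11 other demethylases and JmjC proteins, Jmjd1c, a relative of Kdm3a, was higher at 3 h (1.95), and Jmjd4 (-1.55) and Mina (-1.33) were lower, with 0 past 2-fold at 6 h. Of 27 other acetyltransferases and partners, 3 were 2-fold higher at 3 h, where all genes gave 6.13%, the coactivator Crebbp (1.24), Ing2 (1.10) and Ing3 (1.08), and 1 lower, Nat10 (-1.14), and Ing3 was higher at 6 h (1.24). Of 28 genes of the deacetylase corepressor complexes, 3 were higher at 3 h, all of SIN3 complexes: Arid4b (1.63), Sap30 (1.39) and Arid4a (1.37). At 6 h Arid4b was higher (1.08), and 2 genes were lower, the larger difference being that of Mta1 (-1.30), of the NuRD complex. Of 11 genes that maintain, read or repair 5-methylcytosine, 0 passed 2-fold at 3 h and 2 were higher at 6 h, Apobec1 (2.01) and Zbtb38 (1.01). Apobec1 reached a mean of 1 FPKM only through the fusion columns, at 0.935 and 4.69 FPKM, with 0.285 to 0.527 FPKM in the others. Uhrf1, which guides Dnmt1 to replicated DNA, had ratios of -0.46 and -0.94, and its paralog Uhrf2 of 0.45 and 0.76. Of these 11 genes, 2 lay above 0 and 9 below at 3 h, and 7 above and 4 below at 6 h. Of all 10262 genes, 5148 lay above and 5075 below at 3 h, and 4913 and 5307 at 6 h. With columns scaled to equal sums, 0 of the complex 2 partners and 0 of the other acetyltransferases and partners were 2-fold higher at 3 h, and 0 of the arginine methyltransferases were 2-fold lower at 6 h.

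Beside the promoter letters printed above, the ratios read as follows. Of 6 compared enzyme genes with an E-box in a window, 4 were 1.5-fold higher with the fusion at 3 h (Sirt1, Kdm6a, Hdac5 and Dnmt3a), 5 at 6 h (with Kat5), and 0 were lower at either time. Kdm4c, which like Sirt1 holds 2 E-boxes, had ratios of -0.08 at 3 h and 0.28 at 6 h. Of 34 enzyme genes whose windows lack an E-box, 5 and 8 were higher and 3 and 4 lower. The 8 enzyme genes with no window are in neither group: Hdac1, Hdac3, Hdac10, Kdm2a, Kdm3b, Kdm4b, Kdm5a and Kdm6b. Over all genes compared, 18.2% of 924 with an E-box were higher at 3 h and 18.6% at 6 h, against 15.1% and 16.7% of 6410 without it. The shares that were lower were 13.2% and 13.4% with it and 14.2% and 14.8% without it. Of the 5 enzyme genes with an AP-1 site, 1 was higher at 3 h (Kdm3a), and 3 were higher (Kdm3a, Kdm4a and Kdm5c) and 1 lower (Hdac7) at 6 h. Over all genes, 22.1% and 25.6% of 308 with the site were higher at 3 h and 6 h, against 15.2% and 16.6% of those without it. The numbers of enzyme genes are small, and no test was run on them.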

How the data were processed

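RNA-seq of T11 cells was deposited as 1 table of average FPKM per group, made by the authors. Cuffnorm 2.2.1, Cufflinks 2.2.1, STAR 2.1.3, bcl2fastq 2.17.1.14 and build mm9 appear in the submitters' processing notes. How these were ordered and set, how libraries were scaled and whether strand was used is not given in the sources, so overlapping genes cannot be told apart. The enzyme genes, partner lists and tests were chosen with earlier results of these data known. Ratios are log2 of FPKM + 1 for genes whose mean reached 1 FPKM, counted at 2-fold and 1.5-fold in 12 comparisons. Since columns are averages, no p-value was computed. Genes past 1.5-fold in the fusion against PBS, and the highest of each family, are given with all columns, other genes with ratios. List members named are the up to 4 with the largest ratios past 2-fold, and Uhrf1 and Uhrf2, chosen after their values were seen. A list member that it would name is not reported here. The mm9 starts of the table were shifted by 1, because spans equalled RefSeq's for 7165 of 20649 genes when counted from 0 and for 456 when counted from 1. Depth was read from 35 to 50 genes per column and is rough. Alternatives were other pseudocounts, filters, scalings and a mean of both PBS columns. Python 3.11.15, pandas 2.3.3 and numpy 2.4.6 were used.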

Additional observations from a re-analysis of the deposited data

Results flagged for a closer look

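For 3 of the enzyme genes the fusion column lay on opposite sides of PBS at 3 h and 6 h while passing 1.5-fold at 1 or both of those times. No test of 3 h against 6 h was run on these ratios and the difference was not tested, since each group is 1 averaged column. Ratios of opposite sign at 3 h and 6 h, whatever their size, were found for 10 of the enzyme genes compared, or 20.8%. Among all genes compared the share was 38.7%, so a change of sign was less common in the enzyme genes. How many of all genes also passed 1.5-fold was not counted. Setd4 had log2 ratios of FPKM + 1 of -0.81 at 3 h and 0.61 at 6 h, past 1.5-fold on both sides. Hdac10 had ratios of 0.22 and -0.79, and its 3 h value was -0.02 with columns scaled to equal sums. Hdac11 had ratios of 0.90 and -0.075, and its 6 h value was 0.13 against the mean of both PBS columns.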

How the results depend on the processing

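Each count of enzyme genes past 2-fold was recomputed under 9 alternatives for comparisons with PBS of the same time and under 8 for the others, which have no mean of both PBS columns. With the fusion against PBS at 3 h, the 5 higher genes became 3 at a pseudocount of 5 and 3 with a mean of at least 5 FPKM, and the 0 lower became 1 at a pseudocount of 0.1 and 2 with equal column sums. At 6 h, the 4 higher became 8 at a pseudocount of 0.1 and 1 at 5, and the 1 lower became 4 and 0 at those pseudocounts, 2 with quantile normalisation, 0 against the mean of both PBS columns and 0 with equal sums. Against FPP-1746, the 5 higher at 3 h became 3 (pseudocount 5) and 3 (mean of 5 FPKM), the 0 lower became 1 (pseudocount 0.1) and 1 (equal sums), the 4 higher at 6 h became 8 and 1 (pseudocounts 0.1 and 5), and the 1 lower became 3 (quantile) and 0 (equal sums). Against Omomyc, the 5 higher at 3 h became 2 (pseudocount 5) and 3 (mean of 5 FPKM), the 0 lower became 1 (pseudocount 0.1) and 2 (equal sums), the 3 higher at 6 h became 7 and 1 (pseudocounts 0.1 and 5), and the 1 lower became 0 (pseudocount 5), 2 (quantile) and 0 (equal sums). For the fusion at 6 h against 3 h, the 3 higher became 1 (pseudocount 5), 1 (quantile) and 6 (equal sums), and the 1 lower became 0 (pseudocount 5) and 0 (equal sums). A larger pseudocount shrinks ratios of low genes by construction, and a smaller one widens them. With a mean of at least 5 FPKM, Kdm5b and Tet2 (means of 2.76 and 1.35 FPKM) were no longer compared. The cause of the other shifts was not tested.

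Among 434 single-gene values under the alternatives, 406 kept their side of 2-fold and their direction. Sirt1 at both times and Kdm3a and Kdm6b at 3 h passed 2-fold under every alternative run. The 2-fold difference was lost at a pseudocount of 5 for Tet2 (0.49) and Kdm5b (0.75) at 3 h and for Kdm6b (0.85), Kdm4a (0.90), Sirt7 (0.95) and Setd7 (-0.90) at 6 h. Setd7 at 6 h was also short of it against the mean of both PBS columns (-0.95) and with equal sums (-0.97). With equal sums, ratios of Hdac4 (-0.21) and Sirt7 (-0.09) at 3 h lay below 0, and so did the 3 h medians of the Dnmt (-0.19), Hdac (-0.04) and Kat (-0.04) families. Leaving out the fusion columns when filtering removed Tet2 and left 4 higher genes at 3 h. Leaving out replicates in turn was not run, because the columns are averages. No paired analysis was possible because the columns carry no replicate numbers. At low FPKM (Setd4, Hdac11, Tet2) few fragments limit precision.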
